A study of Mus musculus with 6 samples.

Results

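The Cyp3a cytochrome P450 subfamily and Por, the reductase that supplies it with electrons, were examined in liver RNA of mice lacking Slug in hepatocytes. The genes were taken by symbol: Cyp3a11, Cyp3a13, Cyp3a16, Cyp3a25, Cyp3a41a, Cyp3a44, Cyp3a59 and Por, 8 in all. Of these, 6 had a probe set annotated to that gene alone, among 22180 genes with such a probe set. Cyp3a41a was named only in 2 probe sets shared with Cyp3a11, Cyp3a41b and Cyp3a44, which are given separately, and Por is not analysed here. Each of the 6 genes had 1 probe set of its own.

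Liver of male C57BL/6J mice was hybridised to Affymetrix whole-transcript arrays, 1 array per mouse. HKO mice (n = 3) carried floxed Slug (gene symbol Snai2) with albumin-CreERT2, a Cre recombinase that is driven by the albumin promoter of hepatocytes and becomes active with tamoxifen, and Con mice (n = 3) were their Slug f/f littermates. All 6 mice ate a high fat diet (60% fat in calories) for 11 weeks from an age of 8 weeks, so both groups share the diet. The labels leave out how Cre was induced and whether Con mice carried it. The deletion was aimed at hepatocytes, so Slug of other liver cells was not targeted.

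CYP3A enzymes sit in the membrane of the endoplasmic reticulum and oxidise drugs, steroids and bile acids, using electrons that the reductase Por takes from NADPH. In liver their transcription is driven mainly by the nuclear receptors PXR (gene Nr1i2) and CAR (gene Nr1i3), each paired with RXR. Slug is a Snail-family zinc finger factor that binds E-box sequences and is best known as a repressor of transcription.

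The deposited values were on a log2 scale after RMA, a method that makes the value distributions of all arrays alike, and the median over genes was 3.95 on each array. Differences are therefore relative to the whole array, and levels of different probe sets were not set against each other. Snai2 itself read 7.74, 7.69 and 7.39 in Con mice 1, 2 and 3 and 4.62, 5.23 and 5.69 in HKO mice 1, 2 and 3, a fall of 2.43 ± 0.25 (log2 change HKO minus Con -2.43, moderated SE, limma adjusted p = 0.0145), which matched the labels. Across all genes, limma called 45 of 22180, or 0.203%, at adjusted p under 0.05, 25 of them lower in HKO (0.113%) and 20 higher (0.0902%). Each array was 1 mouse, and no other batch was labelled.

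The 250 bases before the annotated start of 5 genes are shown because the deleted factor belongs to a family that binds E-boxes, and because these genes show the range of promoters in the subfamily. They were read from the RefSeq promoter table of GRCm38.p6. Capitals mark the E-box bound by Snail-family factors (CACCTG, or CAGGTG on the other strand) and the core hexamer bound by nuclear receptors (AGTTCA or AGGTCA, or TGAACT or TGACCT on the other strand). No match to one motif overlapped a match to the other in these windows. The windows are chr5:145879855-145880104 for Cyp3a11, chr5:145805875-145806124 for Cyp3a44, chr5:145469724-145469973 for Cyp3a16, chr5:146009619-146009868 for Cyp3a25 and chr5:137921620-137921869 for Cyp3a13, all on the minus strand and printed 5′ to 3′ along the gene.
Cyp3a11: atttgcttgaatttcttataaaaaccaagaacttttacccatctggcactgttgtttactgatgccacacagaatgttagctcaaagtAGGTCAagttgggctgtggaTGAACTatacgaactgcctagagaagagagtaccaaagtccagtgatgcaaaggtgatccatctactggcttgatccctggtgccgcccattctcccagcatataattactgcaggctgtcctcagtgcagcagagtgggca
Cyp3a44: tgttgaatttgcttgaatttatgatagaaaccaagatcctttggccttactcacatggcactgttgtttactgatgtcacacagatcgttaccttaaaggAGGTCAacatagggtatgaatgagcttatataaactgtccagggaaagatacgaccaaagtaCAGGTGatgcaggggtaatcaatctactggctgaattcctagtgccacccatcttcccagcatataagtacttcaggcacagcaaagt
Cyp3a16: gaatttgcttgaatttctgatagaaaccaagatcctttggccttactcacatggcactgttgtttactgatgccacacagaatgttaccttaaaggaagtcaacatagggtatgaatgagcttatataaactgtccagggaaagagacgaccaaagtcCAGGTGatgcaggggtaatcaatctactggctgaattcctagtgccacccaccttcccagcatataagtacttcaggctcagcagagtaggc
Cyp3a25: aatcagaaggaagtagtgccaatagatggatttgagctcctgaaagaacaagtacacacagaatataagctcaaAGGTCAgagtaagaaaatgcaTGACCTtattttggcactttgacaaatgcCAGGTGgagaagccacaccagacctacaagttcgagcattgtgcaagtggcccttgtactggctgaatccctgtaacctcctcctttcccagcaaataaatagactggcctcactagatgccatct
Cyp3a13: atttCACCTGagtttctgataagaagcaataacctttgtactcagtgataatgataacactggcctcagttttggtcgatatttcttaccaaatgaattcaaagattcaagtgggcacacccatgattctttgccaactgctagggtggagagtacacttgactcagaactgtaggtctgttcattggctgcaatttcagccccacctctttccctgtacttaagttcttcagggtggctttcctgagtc

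Cyp3a11 had no E-box match in this window, while Cyp3a44 had CAGGTG at -88 to -83, Cyp3a16 at -92 to -87 and Cyp3a25 at -126 to -121 from the start, and Cyp3a13 had CACCTG at -246 to -241. Cyp3a59 also held CAGGTG, at -127 to -122, and so did Cyp3a41a at -88 to -83. With the non-members Cyp3a41b and Cyp3a57, 8 of the 9 Cyp3a genes in the table had a match, against 5657 of 32851 promoter windows of this length (17.2%). Many of these windows are near copies of another one, so they are not independent. Cyp3a41a was 99.6% identical to Cyp3a41b, 94.4% to Cyp3a44 and 90.9% to Cyp3a16. Cyp3a25 was 94.8% identical to Cyp3a59 but only 51.8% to Cyp3a44. Cyp3a11 shared 71.7% with Cyp3a44, 72.1% with Cyp3a41b, 76.2% with Cyp3a16 and 52.7% with Cyp3a25, so its window stood nearest to the Cyp3a16, Cyp3a41a, Cyp3a41b and Cyp3a44 copies. The Cyp3a13 window shared between 47.5% and 56.2% with those of the other Cyp3a genes. By the same alignment, the Por window shared between 40.3% and 46.3% with the Cyp3a windows, so the lowest of these values stand little above that.

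The nuclear receptor hexamer was found in 7937 of the 32851 windows (24.2%). Cyp3a11 held it at -162 to -157 and at -142 to -137, in opposite orientations, Cyp3a25 at -176 to -171 and -155 to -150, and Cyp3a44 once at -150 to -145. Cyp3a13 and Cyp3a16 held none, and a direct repeat of the hexamer spaced by 3 bases, a form that PXR binds, occurred in none of the members' windows and in 4 of all 32851 (0.0122%). A match is only a match of letters, and no binding was measured. The Por window (chr5:135688895-135689144, plus strand) held neither motif and had 65.6% G and C, against 45.6% for Cyp3a11.

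**Figure D1:**
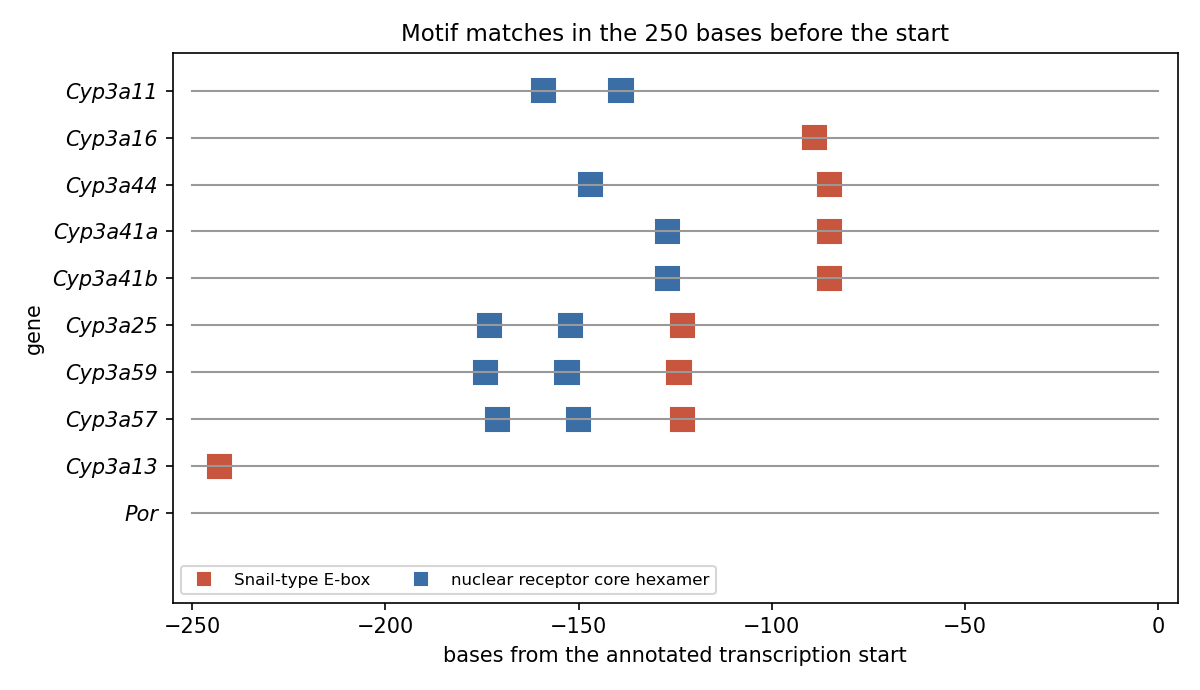
Motif matches in the 250 bases before the annotated start (GRCm38.p6) of 10 genes, with distance from the start in bases on the x axis and 1 line per gene. Red blocks are Snail-type E-boxes and blue blocks are nuclear receptor core hexamers: all Cyp3a lines but that of Cyp3a11 carry a red block, and Por carries neither.

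In the RefSeq gene order of GRCm38.p6, the Cyp3a genes other than Cyp3a13 lie in 1 block of 18 genes on chromosome 5, which holds 8 coding Cyp3a genes, 2 Cyp3a pseudogenes and 8 other entries. The coding Cyp3a genes run in the order Cyp3a57, Cyp3a16, Cyp3a41b, Cyp3a41a, Cyp3a44, Cyp3a11, Cyp3a25 and Cyp3a59. Cyp3a13 lies apart, with 208 genes between it and the block, and Por lies beyond it on the same chromosome with 101 genes between. Since the genes of the block are close copies, a probe of one may also take up transcript of another, and the values below are uncertain to that extent.

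No Cyp3a gene passed the test across all genes (0 of 6, against 0.203% of all genes). The arrays of the groups did not overlap for 2 of the 6, Cyp3a11 and Cyp3a44, both lower in HKO, against 10.1% of all genes apart in that direction. None of the 6 was apart and higher, against 8.05% of all genes. The same 2 had a limma unadjusted p under 0.05, against 6.56% of all genes in that direction. By their means, 4 of 6 were lower in HKO (51.8% of all genes were) and 2 were higher. The median change of the 6 was -0.42 on the log2 scale, and that of all genes was -0.0081.

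Cyp3a11, the most studied of the mouse CYP3A enzymes and a standard readout of PXR activation, read 8.80, 9.29 and 8.76 in Con mice 1, 2 and 3 and 8.59, 8.46 and 8.15 in HKO mice 1, 2 and 3. Every HKO array lay below every Con array, with 0.17 between the nearest 2. Means were 8.95 ± 0.30 for Con and 8.40 ± 0.23 for HKO (SD, n = 3 each), a difference of -0.55 ± 0.18 (SE) on the log2 scale, or 1.46-fold lower, with an unadjusted 95% interval from -0.95 to -0.15. Over all genes this missed the threshold (limma adjusted p = 0.294), and an exact permutation test over the mice, two-sided, returned p = 0.1, the lowest value possible with 3 arrays a group. Con mouse 2 held the highest value: without it the difference was -0.38, and without HKO mouse 1 it was -0.65. In whole liver, fewer cells of a type and less RNA per cell cannot be told apart.

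Cyp3a25, a CYP3A enzyme of liver and intestine, read 8.45, 8.55 and 8.88 in Con mice 1, 2 and 3 and 8.53, 8.42 and 7.41 in HKO mice 1, 2 and 3. The groups overlapped, and HKO mouse 3 alone lay more than 1 log2 unit below the rest of its group. The mean was 8.63 ± 0.23 in Con and 8.12 ± 0.61 in HKO (SD, n = 3 each), a difference of -0.51 ± 0.28 with a 95% interval from -1.15 to 0.13 (limma adjusted p = 0.535, exact permutation p = 0.2). Without HKO mouse 3 the difference was -0.15, so most of it rested on that mouse.

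Cyp3a59, the neighbour of Cyp3a25 with the nearly identical promoter, read 7.21, 6.76 and 6.92 in the Con mice and 6.82, 6.61 and 6.46 in the HKO mice, in the same order. The HKO values were the lower ones apart from HKO mouse 1, which lay just above Con mouse 2. The difference was -0.33 ± 0.15, from 6.96 ± 0.23 in Con to 6.63 ± 0.18 in HKO (SD, n = 3 each), with a 95% interval from -0.68 to 0.0073 (limma adjusted p = 0.431, exact permutation p = 0.2). Without Con mouse 1 it was -0.21. The low value of HKO mouse 3 in Cyp3a25 was not matched by one of like size in Cyp3a59, although that mouse was the lowest there too.

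Cyp3a13, the member that lies outside the block and is also a CYP3A form of the intestine, read 8.80, 8.82 and 8.64 in Con and 9.06, 8.79 and 8.74 in HKO. These values overlapped and spanned less than those of Cyp3a11. The mean was 8.76 ± 0.10 in Con and 8.86 ± 0.17 in HKO (SD, n = 3 each), a difference of 0.11 ± 0.12 with a 95% interval from -0.17 to 0.39 (limma adjusted p = 0.785, exact permutation p = 0.6). Without HKO mouse 1 the difference was 0.0095, without Con mouse 3 it was 0.05, and without HKO mouse 3 it was 0.17.

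Cyp3a44, known as a female-predominant CYP3A form of mouse liver, was dim in these males: 4.53, 4.16 and 4.12 in Con mice 1, 2 and 3 and 2.99, 3.90 and 3.87 in HKO mice 1, 2 and 3. No HKO array reached a Con array, with a gap of 0.23. Every HKO value was under the array's median, so transcript above background was not shown in HKO. The mean was 4.27 ± 0.22 in Con and 3.58 ± 0.52 in HKO (SD, n = 3 each), a difference of -0.69 ± 0.24 with a 95% interval from -1.25 to -0.13. This is the difference of the probe set's readings, and since the HKO side may be background, it is no measured fold of the transcript. It too missed the threshold over all genes (limma adjusted p = 0.337; exact permutation p = 0.1). HKO mouse 1 decided much of the size, which was -0.39 without it.

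Cyp3a16, a form mainly of fetal and newborn liver, was under the array's median on all 6 arrays, at 2.12, 2.47 and 2.53 in Con and 2.50, 2.65 and 2.06 in HKO. A level above background was not shown. The difference was 0.03 ± 0.18 with a 95% interval from -0.38 to 0.43 (limma adjusted p = 0.971, exact permutation p = 0.9), and its sign turned when any of 3 arrays was left out. Cyp3a57, a gene of the block outside the list, was also under the array's median throughout, with 1.76 to 1.94 in Con and 1.64 to 2.15 in HKO.

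The 2 probe sets shared by Cyp3a41a, Cyp3a41b, Cyp3a11 and Cyp3a44 cannot be assigned to 1 gene. The first read 8.95, 8.79 and 8.68 in Con and 8.75, 8.64 and 8.63 in HKO, a difference of -0.13 ± 0.11 with a 95% interval from -0.38 to 0.12 (limma adjusted p = 0.705 over the 25335 annotated probe sets, exact permutation p = 0.2). The second read 8.69, 8.53 and 8.39 in Con and 8.46, 8.09 and 8.31 in HKO, a difference of -0.25 ± 0.13 with a 95% interval from -0.55 to 0.06 (limma adjusted p = 0.536, exact permutation p = 0.2). In both, the HKO mean was lower and the groups overlapped. Both differences were smaller in size than the -0.55 of Cyp3a11's own probe set. That value lay below the interval of the first shared probe set and at the lower end of that of the second. The interval of Cyp3a11's own probe set, -0.95 to -0.15, overlapped both. Whether the probe sets differed in their change, and for what reason, was not tested. Leaving out 1 array at a time gave -0.19 to -0.06 for the first and -0.33 to -0.15 for the second.

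**Figure D2:**
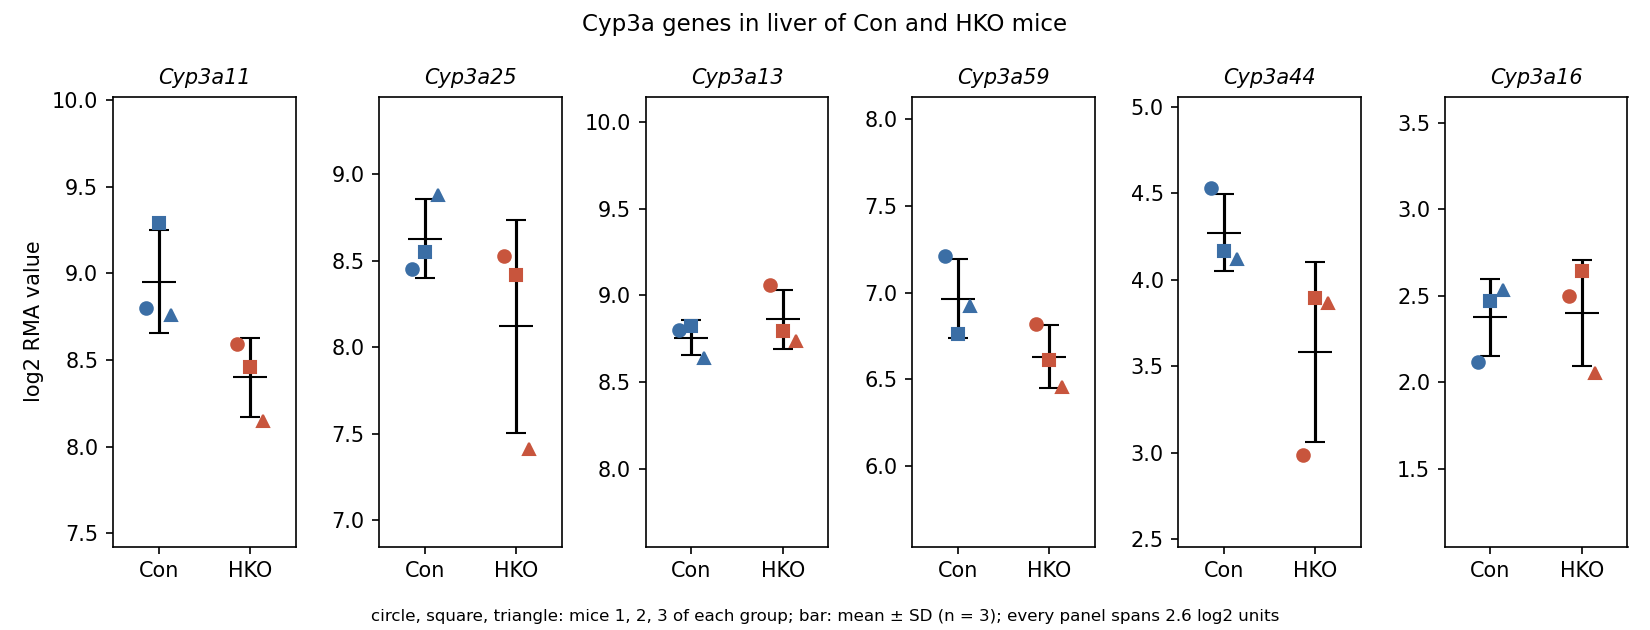
Log2 RMA values (y axis) of the 6 Cyp3a genes in Con and HKO mice (x axis), 1 panel per gene, each spanning 2.6 log2 units at its own level. Circles, squares and triangles are mice 1, 2 and 3 of each group and bars are mean ± SD (n = 3): the groups are separate in the Cyp3a11 and Cyp3a44 panels, and HKO mouse 3 stands low in that of Cyp3a25.

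**Figure D3:**
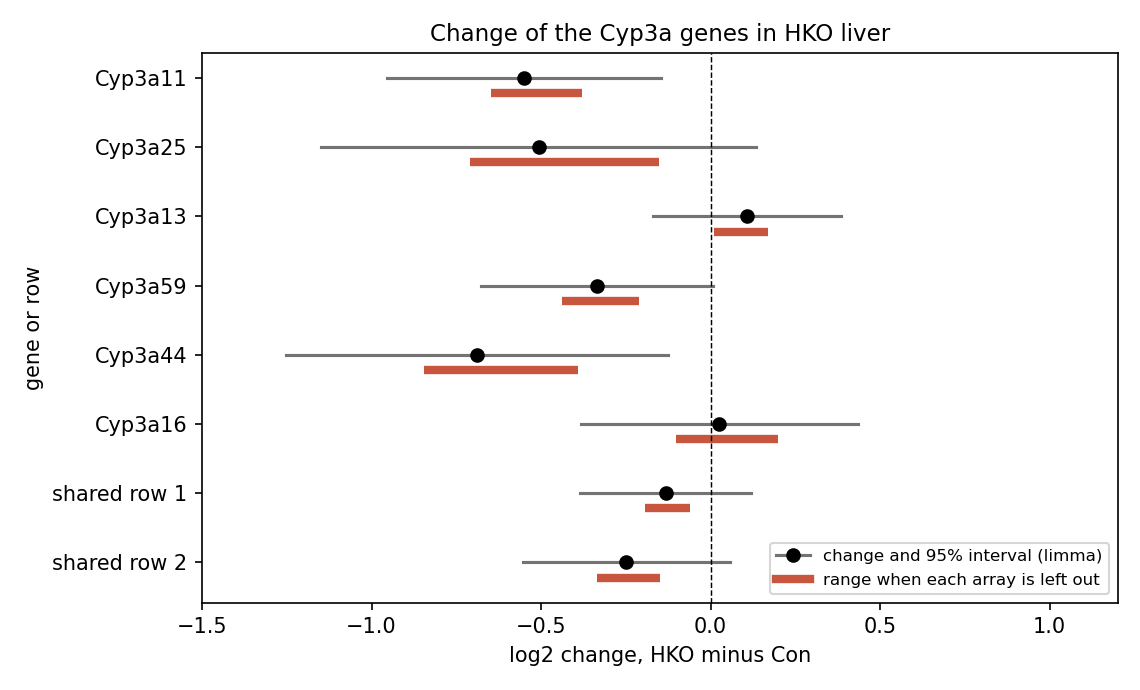
Log2 change, HKO minus Con (x axis), of the 6 Cyp3a genes and the 2 shared probe sets (shared rows 1 and 2 on the y axis). Points with grey lines are limma's change and unadjusted 95% interval, and red bars are the range when 1 array at a time is left out: the intervals of Cyp3a11 (-0.95 to -0.15) and Cyp3a44 (-1.25 to -0.13) lie below 0, and the red bar of Cyp3a16 spans it.

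To see whether 2 members changed unequally, the log2 value of Cyp3a11 was subtracted from that of each other member on the same array, which removes whatever scales both alike. Cyp3a13 minus Cyp3a11 was 0.00, -0.47 and -0.12 in Con and 0.46, 0.34 and 0.58 in HKO. All 3 HKO values lay above all 3 Con values, from -0.20 ± 0.24 in Con to 0.46 ± 0.12 in HKO (SD, n = 3 each), a difference of 0.66. With 5 pairs computed, all sharing Cyp3a11, an exact permutation test, two-sided, returned p = 0.1 and a Benjamini-Hochberg adjusted p of 0.25, and with 3 arrays a group this test cannot go below 0.1. The difference ran from 0.52 to 0.76 when 1 array at a time was left out. Cyp3a13 itself differed by 0.11 with overlapping groups, and Cyp3a11 by -0.55. Most of the 0.66 thus restates the difference of Cyp3a11 with its sign turned.

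Cyp3a16 minus Cyp3a11 was 0.58 higher in HKO without overlap (exact permutation p = 0.1, adjusted p = 0.25). As Cyp3a16 was not shown to be above background and itself differed by 0.03, this value mostly restates the difference of Cyp3a11 with its sign turned. Cyp3a25, Cyp3a59 and Cyp3a44, the remaining members of the block, gave differences of 0.04, 0.22 and -0.14 against Cyp3a11 with overlapping groups (exact permutation p = 0.9, 0.8 and 0.8, adjusted p = 0.9 for each). Each of these 3 turned its sign when some single array was left out, so the data do not order them with respect to Cyp3a11.

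**Figure D4:**
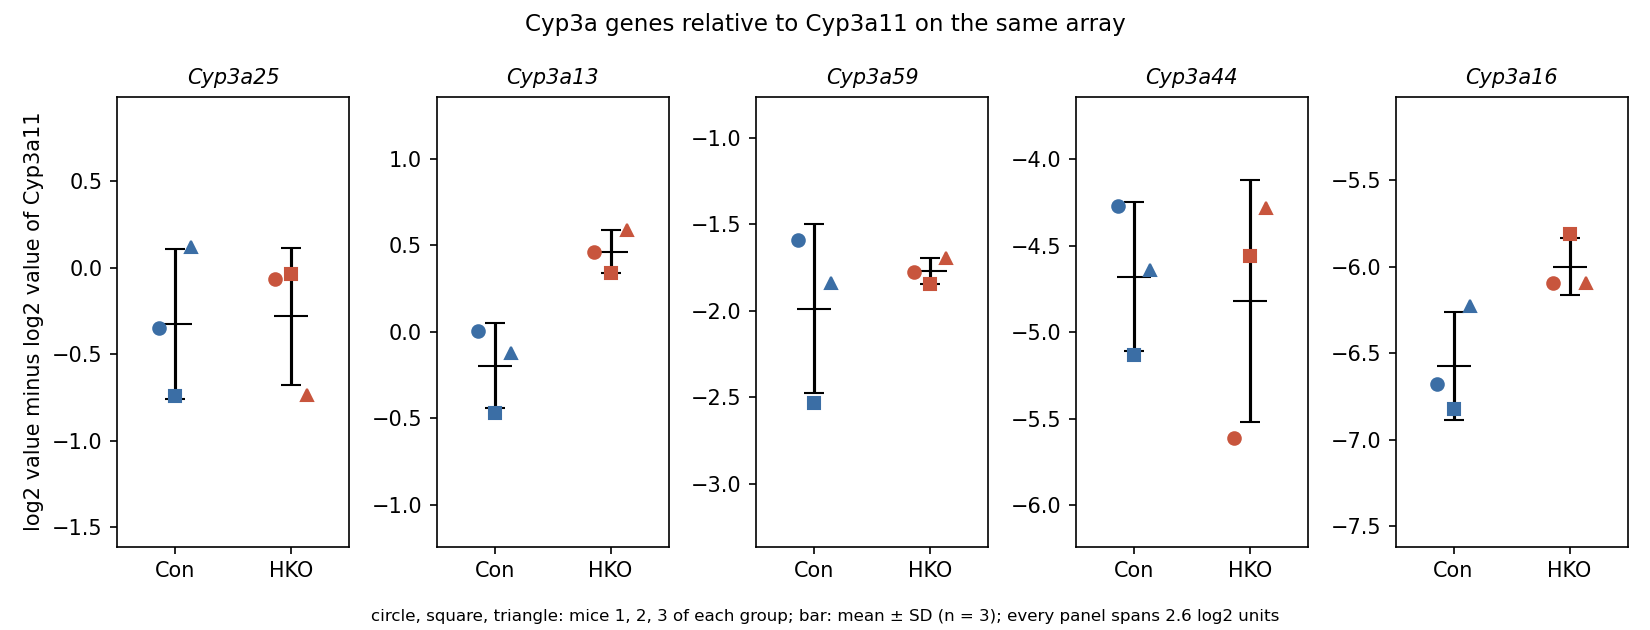
Log2 value of each of 5 Cyp3a genes minus that of Cyp3a11 on the same array (y axis) in Con and HKO mice (x axis), each panel spanning 2.6 log2 units. Circles, squares and triangles are mice 1, 2 and 3 and bars are mean ± SD (n = 3): the groups are separate for Cyp3a13 (-0.20 against 0.46) and Cyp3a16, and overlap for Cyp3a25, Cyp3a59 and Cyp3a44.

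The genes whose pattern over the 6 arrays was most like that of Cyp3a11 were Snhg18, Pcolce, Cpne8, Kcnj10 and Dyrk3, with a root mean square difference of centred log2 values from 0.0935 to 0.120, among 1144 genes bright and variable enough to be compared. For Cyp3a44, whose readings gave the largest difference over all 6 arrays though not without HKO mouse 1, they were 9030619P08Rik, Vnn1, Hspbap1, Fitm1 and Jun, from 0.135 to 0.188 among 446 genes. No gene stood on both lists of 5. These are descriptions over 6 arrays, and a pattern shared by chance would look the same.

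Among 19 measured regulators of Cyp3a transcription, out of 20 listed, none passed the test across all genes. Means were higher in HKO for 13 and lower for 6, with a median change of 0.13, and 7 had an unadjusted p under 0.05, all higher in HKO (5.31% of all genes were so). Nr1i3, which encodes CAR, read 9.10, 9.13 and 9.12 in Con and 9.61, 9.36 and 9.60 in HKO, a difference of 0.41 ± 0.11 without overlap (limma adjusted p = 0.220). Its mean was higher in HKO and that of Cyp3a11 lower, neither past the threshold, and a link between them was not tested. The pioneer factor Foxa3 differed by 0.55 ± 0.17 (limma adjusted p = 0.278), and the circadian factor Dbp, a PAR bZIP protein of liver, by 0.63 ± 0.22 (limma adjusted p = 0.319), the latter with overlapping groups.

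Nr1i2, which encodes PXR, and the others of this paragraph were picked after their values were seen. Nr1i2 read 7.78, 7.81 and 7.82 in Con and 7.91, 7.68 and 7.51 in HKO, a difference of -0.10 ± 0.12 (limma adjusted p = 0.801). Rxra, the partner of both receptors, was at 8.61, 8.53 and 8.48 in Con and 8.79, 8.78 and 8.85 in HKO (0.27 ± 0.10, limma adjusted p = 0.341), and Hnf4a, a master factor of hepatocyte genes, differed by 0.12 (limma adjusted p = 0.733). The HKO mice were not alike in several regulators. Onecut1, a hepatocyte transcription factor also called HNF6, read 5.29 in HKO mouse 1 but 9.10 and 8.87 in HKO mice 2 and 3, against 5.39 to 5.76 in Con. Nr0b2, the corepressor SHP, read 7.77, 6.72 and 5.51 in HKO mice 1, 2 and 3, against 7.50 to 7.76 in Con. The pioneer factor Foxa1 read 7.09, 7.92 and 8.19 in HKO mice 1, 2 and 3, against 6.87 to 7.30 in Con, and its relative Foxa2 6.05, 6.87 and 7.15, against 5.99 to 6.29. HKO mouse 1, near the Con values in these 4 genes, was the HKO mouse with the highest Cyp3a11, Cyp3a13, Cyp3a25 and Cyp3a59. That mouse also had the lowest Cyp3a44, a reading that may be background, and the lowest Snai2 (4.62). Any link among these values was not tested.

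Of the electron transfer partners of P450 enzymes, 6 of 7 were measured and none passed the test; the median change was -0.03. Cytochrome b5 (Cyb5a), which can pass electrons to CYP3A enzymes, read 9.58, 9.57 and 9.68 in Con and 9.55, 9.50 and 9.45 in HKO, a difference of -0.11 ± 0.10 (limma adjusted p = 0.710). The mitochondrial ferredoxin Fdx1 differed by 0.42 ± 0.11 (limma adjusted p = 0.221) and the heme-binding membrane protein Pgrmc2 by -0.22 (limma adjusted p = 0.582). None of 11 measured genes of heme synthesis and breakdown, out of 12, passed either, with a median of -0.02. The lowest p there was that of the biliverdin reductase Blvra, at -0.38 ± 0.11 (limma adjusted p = 0.271), followed by Hmox1, which opens the heme ring, at -0.31 (0.499), and Urod, a heme synthesis enzyme, at 0.24 (0.523).

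Of 22 genes outside Cyp3a that were listed as targets of PXR and CAR, 19 were measured. Means were lower in HKO for 14 and higher for 5 (51.8% of all genes were lower), with a median change of -0.16. The groups were apart for 6 lower (10.1% of all genes) and 3 higher (8.05%), and 4 had an unadjusted p under 0.05 in each direction (6.56% of all genes lower, 5.31% higher). Past the threshold over all genes there was 1, lower in HKO (0.113% of all genes). The called gene was Cyp2b13, a female-predominant P450, with 7.63, 7.35 and 6.62 in Con and 4.27, 3.19 and 4.19 in HKO (-3.32 ± 0.33, limma adjusted p = 0.0145). It also stands on the list of female-predominant genes, as does Cyp2b9, another of the 6 (-0.86, limma adjusted p = 0.488). Whether PXR or CAR acts on either gene was not tested. Papss2, which makes the sulfate donor of conjugation, differed by 0.54 ± 0.12 (limma adjusted p = 0.169) and the P450 Cyp2c37 by 0.65 ± 0.20 (limma adjusted p = 0.278). Cyp2b10, the standard CAR target and picked here after its values were seen, was dim, at 2.74 to 4.05 in Con and 2.43 to 3.51 in HKO (limma adjusted p = 0.591).

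Cyp3a41a and Cyp3a44 are female-predominant forms, so genes of sex-dependent liver expression were set beside them. Of 18 measured female-predominant genes out of 20, Cyp2b13 alone fell past the threshold (0.113% of all genes did). Means were higher in HKO for 12 and lower for 6, and the median change was 0.15. Only 12 of the 18 lay above the median over genes. The dimmer ones, Sult3a1, Sult2a1, A1bg, Slc22a26, Prom1 and Cux2, all had higher means, and a level above background was not shown for them. After Cyp2b13, the next by p were the transporter gene Slc22a27, at -1.58 (limma adjusted p = 0.0691), and the P450 Cyp2c40, at 1.48 (limma adjusted p = 0.0835). Of 17 male-predominant genes, 2 rose past the threshold (0.0902% of all genes did). These were the transporter Slco1a1, by 3.41 (limma adjusted p = 0.0145), and the complement regulator Susd4, by 1.35 (limma adjusted p = 0.0344). Selenbp2 followed at 2.08 (limma adjusted p = 0.0632). Of these 17, 16 had a higher mean in HKO, with a median change of 0.74, while 51.8% of all genes had a lower one. A lower Cyp3a44 mean thus stood beside female-predominant genes whose means went both ways.

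Since CYP3A transcripts are densest in hepatocytes around the central vein, markers of position in the lobule were read as well. None of 12 pericentral markers passed the test. Their means were higher in HKO for 9 and lower for 3 (51.8% of all genes were lower), with a median change of 0.17. None of 10 measured periportal markers out of 12 passed it, with 5 means higher, 5 lower and a median of 0.02. The pericentral P450 Cyp1a2 read 9.23, 9.21 and 9.53 in Con and 10.16, 10.05 and 9.97 in HKO. This was a difference of 0.73 ± 0.12 (limma adjusted p = 0.0811). Its mean was higher in HKO and that of Cyp3a11 lower, and a link to position in the lobule was not tested. Slc13a3 differed by -0.82 (limma adjusted p = 0.142) and Cyp27a1 by 0.25 (limma adjusted p = 0.436), so the 3 pericentral genes of lowest p did not share a direction.

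The tissue label was borne out by hepatocyte markers: of 11 measured out of 12, all lay above the median over genes, and their summed linear value was 31505 to 33534 in Con and 31248 to 34106 in HKO, with a median change of 0.0058 and none called. Markers of stellate cells and fibroblasts had lower means in HKO in 8 of 10, with 1 called, Col1a2 (-0.98, limma adjusted p = 0.0415). The median was -0.74, and summed values were 1462 to 1637 in Con and 1139 to 1293 in HKO. Lrat (0.03), Des (0.05) and Reln (-0.0047), picked after their values were seen, differed little, so the list did not fall as a whole. Markers of monocyte-derived macrophages had lower means in 9 of 9 measured out of 10, with 1 called, Itgax (-1.02, limma adjusted p = 0.0280), a median of -0.62 and sums of 296 to 316 and 177 to 226. Over all genes, 51.8% of means were lower in HKO and 0.113% of genes were called lower. For both marker lists the sums of the groups did not overlap. Linear sums weigh bright genes most, such as Dcn of the first list (9.52 to 9.59 in Con). Means of log2 values, which weigh genes alike, were apart too. They were 6.33 to 6.65 in Con and 5.85 to 6.06 in HKO for the first list. For the second they were 4.79 to 4.97 in Con and 3.97 to 4.40 in HKO. The part of these cells in the Cyp3a values was not tested. Kupffer cell markers (8 of 8 measured) summed to 1054 to 1344 in Con and 1073 to 1226 in HKO, and sinusoidal endothelial markers (8 of 8) to 1683 to 1707 and 1700 to 1712, with none called.

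Because Cyp3a13 and Cyp3a25 are also made in intestine, enterocyte markers were read too. Of 7 listed, 6 were measured and none was called, and 1 of the 6 lay above the median over genes. That gene was Fabp2, also a fatty acid binding protein of hepatocytes, at 9.52 to 9.69 in Con and 9.04 to 9.10 in HKO (limma adjusted p = 0.0935). Of 5 measured adipocyte markers out of 6, 1 lay above that median, Fabp4. It fell by 1.22 (limma adjusted p = 0.0444) and was the only one called (0.113% of all genes were called lower). Of the 5 means, 3 were higher in HKO and 2 lower, with a median change of 0.15, so the list shared no direction. Cholangiocyte markers (6 of 7 measured) summed to 109 to 128 in Con and 103 to 138 in HKO, and T, NK and B cell markers (9 of 10) to 113 to 140 and 131 to 158, with none called.

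**Figure D5:**
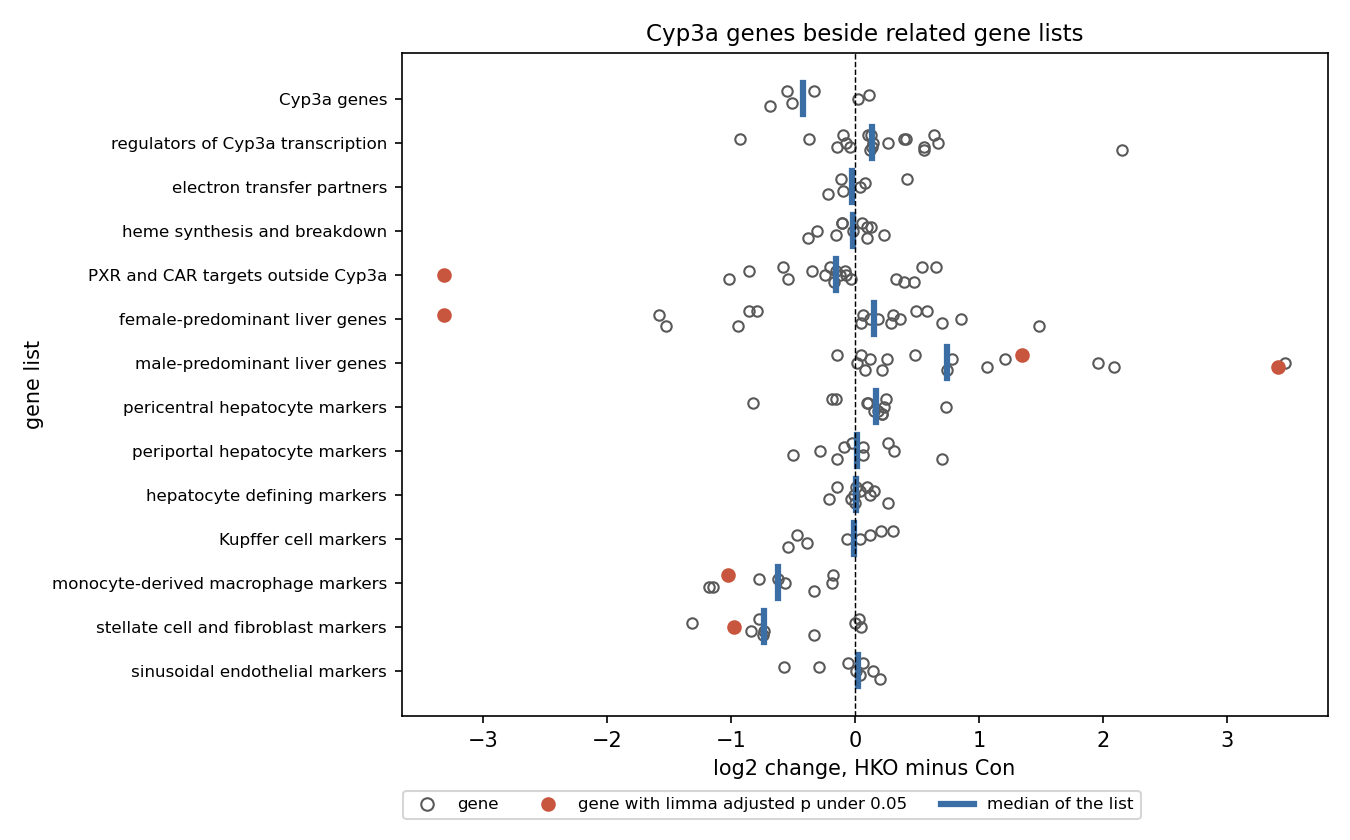
Log2 change, HKO minus Con (x axis), of each measured gene in the Cyp3a family and 13 related gene lists (y axis). Open circles are genes, filled red circles are genes with limma adjusted p under 0.05 and blue bars are list medians: the Cyp3a median is -0.42 with no filled circle, that of the regulators 0.13, and that of the stellate cell and fibroblast markers -0.74.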

How the data were processed

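Liver RNA of 6 mice (3 Con, 3 HKO) was measured on Affymetrix arrays. The deposited log2 values came from RMA, and the submitters' processing notes name R 3.3.0; further steps and the build of the array design are unstated in these sources. RMA compresses changes of dim genes. Arrays have no read depth; their number limits precision.

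Of 41345 probe sets, 23521 were annotated to 1 gene, 1814 to several and 16010 to none. Matching to RefSeq (GRCm38.p6) found 23328, and symbols of the other 193 were kept. The probe set of highest mean stood for a gene; no low-value filter was applied. HKO and Con were compared with limma 3.58.1 in R 4.3.3 (lmFit, eBayes, no covariate; Benjamini-Hochberg over 22180 genes, adjusted p 0.05), beside exact permutation tests. The fit was tested on simulated data. Promoters were searched in Python 3.11.15 and aligned with Biopython 1.88; figures used matplotlib 3.10.9.

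The members and lists were chosen with earlier results of these data known. Named were all members, Snai2, each list's 3 genes of lowest p and any called (printed for regulators, partners, heme, target, sex-dependent and pericentral genes), and the 5 genes most like Cyp3a11 and like the member of largest change (mean above the median over genes, SD at least 0.8 times the member's); exceptions are stated. Other normalizations, filters, probe set choices, variance models, array weights, a replicate block and leaving out arrays were tried. A planned ratio to Por and a protein comparison are not analysed here.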

Additional observations from a re-analysis of the deposited data

How the results depend on the processing

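No Cyp3a gene passed adjusted p 0.05 under any of 16 alternatives; Cyp3a16 could not be tested with the filter at the median over genes or at the 40th percentile in at least 3 arrays, nor Cyp3a44 with the former. Cyp3a11, Cyp3a13, Cyp3a25, Cyp3a44 and Cyp3a59 kept their direction throughout. The limma adjusted p ranged from 0.135 to 0.539 for Cyp3a11 and from 0.242 to 0.590 for Cyp3a44. Cyp3a16 ran from -0.10 to 0.20 when 1 array was left out, below 0 without Con mouse 1 (-0.10), HKO mouse 1 (-0.02) or HKO mouse 2 (-0.10). The count of called genes, 45, became 138 of the 11090 genes above the median. It was 64 of the 13485 genes above the 40th percentile in at least 3 arrays. With a variance trend it was 215, and 4 to 32 when 1 array was left out. The cause of these shifts was not tested. The ratio leave-one-outs were chosen after seeing the data: against Cyp3a11 they ran from -0.17 to 0.27 for Cyp3a25, -0.41 to 0.26 for Cyp3a44, -0.057 to 0.41 for Cyp3a59, 0.52 to 0.76 for Cyp3a13 and 0.45 to 0.75 for Cyp3a16. With the replicate number as a block, 3 genes were called and no Cyp3a gene (Cyp3a11 adjusted p = 0.297, Cyp3a44 0.404). The numbers were not taken to pair the mice: deviations of same-numbered arrays correlated at 0.03, 0.02 and 0.02, though each array correlated best with its own number. Dim values limit Cyp3a16 and Cyp3a44.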
